A study of Homo sapiens with 8 samples.

Results

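The 10 genes described here encode transporters that carry amino acids across the plasma membrane: SLC3A2, SLC7A5, SLC7A6, SLC7A11, SLC43A2, SLC1A4, SLC1A5, SLC38A1, SLC38A2 and SLC7A1. They were taken by gene symbol from a deposited expression table of 60234 genes. Each symbol stood on 1 Ensembl identifier, and all 10 were among the 15092 genes that entered the test, those averaging 1 CPM or more (CPM is the read count scaled to a common library total). The 8 libraries come from Rh41, an established human line of alveolar rhabdomyosarcoma, a childhood tumour with features of skeletal muscle, and every library carries the PAX3-FOXO1 gene fusion. The control group has 4 libraries (knockdown labelled control, with no further description of the reagent), and the siG9a group has 4 libraries in which G9a, the histone methyltransferase encoded by EHMT2, was knocked down. The sample labels write siG9a and the series title writes shG9a, so the kind of reagent and the time after its delivery are not known here. The replicates are called biological, but nothing says whether they were separate cultures, so the p-values measure the spread between these libraries in a single cell line.

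Amino acid transporters set how fast a cell can take up the building blocks of protein. SLC3A2 (4F2hc, CD98) is a glycoprotein heavy chain that brings light chains of the SLC7 family to the cell surface: SLC7A5 (LAT1) exchanges large neutral amino acids such as leucine, SLC7A6 (y+LAT2) exchanges cationic for neutral amino acids, and SLC7A11 (xCT) imports cystine in exchange for glutamate for glutathione synthesis. SLC1A5 (ASCT2), SLC1A4 (ASCT1), SLC38A1 (SNAT1) and SLC38A2 (SNAT2) carry small neutral amino acids including, for most of them, glutamine. SLC7A1 (CAT1) carries arginine and lysine, and SLC43A2 (LAT4) lets large neutral amino acids move down their gradient. Several of these genes are known targets of ATF4, the transcription factor that is translated when amino acids run short, and leucine entry is known to be sensed by mTORC1.

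None of the 10 transporters passed the test for a change between control and siG9a. Their log2 changes (siG9a minus control, on log2(CPM + 1)) lay between −0.53 for SLC38A1 and 0.58 for SLC43A2, with a median of −0.10, beside 0.01 over all genes tested. By limma with group as the only term, 0 of 10 had a Benjamini-Hochberg adjusted p under 0.05, and 0% of all genes tested did. At an unadjusted p under 0.05 the count was also 0 of 10, where 12.5% of all genes passed. With the replicate number as a block, here called the paired fit, 0 of 10 were called while 11.4% of all genes were, and 2 of 10 (SLC38A1 and SLC43A2) had an unadjusted p under 0.05, as had 25.5% of all genes. edgeR and DESeq2 on the recovered reads, with and without the block, also called 0, with no adjusted p for SLC1A4 by DESeq2. The siG9a values of 0 of 10 transporters lay apart from the control values, against 7.32% of all genes. In bulk RNA a lower share of cells and less RNA per cell cannot be told apart.

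The knockdown itself was visible in the same libraries. EHMT2 measured 57.6, 68.1, 87.3 and 88.3 CPM in control replicates 1 to 4 and 19.6, 35.1, 33.1 and 58.5 CPM in siG9a. It was lower in 4 of 4 pairs, as 15.3% of all genes were (limma adjusted p = 0.191, and 0.000472 in the paired fit). The groups overlapped, with siG9a replicate 4 above control replicate 1. Libraries held 1458825 to 1938665 reads assigned to genes, so 1 read was worth 0.516 to 0.685 CPM. The replicate 3 libraries of both groups stood apart from the rest. The summed level of the 7 muscle markers in the table was 203 and 250 CPM there and 811 to 1697 CPM in the other 6 libraries, with MYOD1 detected in all 8 and MYF5 at 0 in all 8. The summed level of 6 neural markers, nearly all of it the neurofilament genes NEFL and NEFM, was 8931 and 9611 CPM there and 191 to 2954 CPM elsewhere. The summed level of 7 fibroblast markers was 52.0 and 118 CPM in replicate 3 and 146 to 407 CPM elsewhere, most of it COL3A1 (38.8 to 340.7 CPM) and COL1A1 (12.0 to 55.3 CPM), while DCN, LUM and THY1 were at 1.21 CPM or less in every library. The summed level of 6 epithelial markers was 44.0 and 76.2 CPM in replicate 3 and 10.3 to 32.7 CPM elsewhere, with KRT18 at up to 46.1 CPM and EPCAM and CLDN4 at 0.69 CPM or less. Some markers also moved with the knockdown. Of the 6 muscle markers tested, 4 were called lower in siG9a in the paired fit, where 11.4% of all genes were called. Without the block 0 of the 6 were. Without both replicate 3 libraries 4 of the 6 were called in the paired fit, where 7.87% of all genes were. In those libraries 4 were also called without the block, where 2.77% of all genes were. The summed level of the muscle markers was 203 to 1215 CPM in siG9a and 250 to 1697 CPM in control. COL1A1 (51.9 and 33.3 CPM in control and siG9a) was called lower in the paired fit (limma adjusted p = 0.041). The call was lost without pair 2 (0.268) or pair 3 (0.368), and by edgeR (0.0554) and DESeq2 (0.129) with the block. CDH1 (7.53 and 1.96 CPM) was called lower too (paired limma adjusted p = 0.0171). That call was lost without pair 2 (0.0893) or pair 4 (0.0845), and by DESeq2 with the block (0.0839). KRT19, KRT8 and KRT18, the other epithelial markers tested, had log2 changes of 0.92, 0.37 and 0.27 and were not called in the paired fit. Without both replicate 3 libraries KRT19 was called higher in the paired fit, where 7.87% of all genes were called. Mitochondrial genes took 4.59% to 9.18% of the reads of a control library and 5.21% to 13.7% of a siG9a library, with siG9a higher in 4 of 4 pairs. The part of these markers and of the mitochondrial share in the transporter results was not tested. Results are therefore also given without both replicate 3 libraries, where limma called 0 of 10 transporters without a block (415 of 14998 genes, 2.77%) and 0 of 10 in the paired fit (1180 genes, 7.87%).

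**Figure D1:**
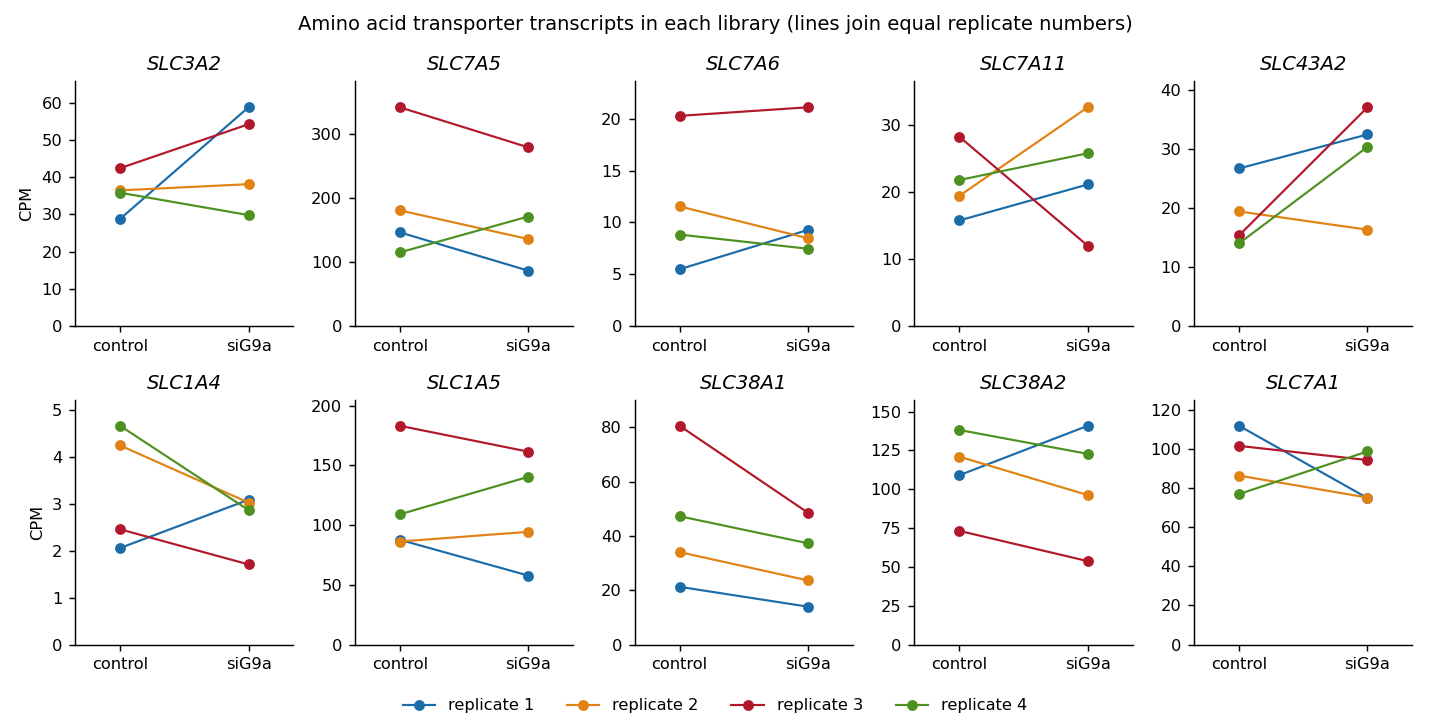
CPM of each transporter (vertical axes, each from 0) in the control and siG9a libraries (horizontal axis), with lines joining libraries of equal replicate number. SLC38A1 slopes down in 4 of 4 pairs, and the replicate 3 libraries are the highest of their group for SLC7A5, SLC7A6, SLC1A5 and SLC38A1 and the lowest for SLC38A2.

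QuantSeq primes on the poly(A) tail and gives a read per transcript end, so CPM was compared between genes without division by length. In control the order by mean was SLC7A5 (196.4 ± 101.1 CPM), SLC1A5 (116.6 ± 45.6), SLC38A2 (110.3 ± 27.5), SLC7A1 (94.1 ± 15.5), SLC38A1 (45.8 ± 25.5), SLC3A2 (35.9 ± 5.58), SLC7A11 (21.3 ± 5.26), SLC43A2 (18.9 ± 5.71), SLC7A6 (11.5 ± 6.34) and SLC1A4 (3.36 ± 1.29), each as SD with n = 4. Of the neighbours in this order, only SLC3A2 and SLC7A11, and SLC7A6 and SLC1A4, had ranges that did not overlap. Within each of the 8 libraries SLC7A5 was above SLC1A5. In siG9a the first 4 places and the last 2 were held by the same genes, while SLC3A2 passed SLC38A1 and SLC43A2 passed SLC7A11.

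ATF4 acts through the amino acid response element, so the letters around the start sites of the transporters were searched for one of its core forms, TGATGNAA, on both strands. RefSeq promoters (GRCh38.p14) were matched by symbol for 9 of the 10 genes, all except SLC7A11. Of these 9, 3 held a match, as did 3.62% of 35116 promoters of the same length. The matches are shown because they mark which transporters carry these letters near the start site. The matched letters are in capitals, read 5′ to 3′ on the strand of the gene.
SLC3A2: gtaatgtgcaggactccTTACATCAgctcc
SLC7A1: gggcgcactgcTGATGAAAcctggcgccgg
SLC38A1: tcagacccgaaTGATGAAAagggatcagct
The SLC3A2 stretch is chr11:62881719-62881748 on the plus strand, that of SLC7A1 is chr13:29595663-29595692 on the minus strand, and that of SLC38A1 is chr12:46266502-46266531 on the minus strand. The SLC3A2 match is on the strand opposite to the gene and lies 37 bases after the start site, that of SLC7A1 lies 7 bases after it, and that of SLC38A1 lies 4 bases before it. The E-box CACGTG, bound by MYC and related factors, was in 1 of 9 promoters (SLC7A5) and in 7.26% of all. The letters TGACNNNGC, the core of the antioxidant response element bound by NFE2L2, were in 4 of 9 (SLC3A2, SLC7A1, SLC7A5 and SLC7A6) and in 13.4% of all. No match overlapped another. A match describes the letters, and no binding was measured.

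SLC3A2, the shared heavy chain, measured 28.8, 36.5, 42.4 and 35.8 CPM in control replicates 1 to 4 and 58.8, 38.1, 54.2 and 29.8 CPM in siG9a. The siG9a values spread more widely than the control values, with replicates 1 and 3 above every control library and replicate 4 near the bottom of the control range. The means were 35.9 ± 5.58 and 45.2 ± 13.6 CPM (SD, n = 4 each). The log2 change was 0.29 ± 0.27 (SE) with a limma adjusted p of 0.710, and 0.426 in the paired fit.

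SLC7A5, the leucine-carrying light chain and the most abundant transporter of the 10, measured 146.7, 181.1, 342.5 and 115.3 CPM in control and 86.7, 136.2, 279.8 and 171.5 CPM in siG9a. Both replicate 3 libraries were the highest of their group. In pairs 1, 2 and 3 the siG9a library had 59.1%, 75.2% and 81.7% of its control, but in pair 4 it had 148.8%. The log2 change was −0.22 ± 0.38 (SE, limma adjusted p = 0.871), and the paired fit gave an SE of 0.17 and an adjusted p of 0.461. This value turned on pair 4: without that pair the log2 change was −0.48 ± 0.15 (SE), with a paired limma adjusted p of 0.0488. The fit without pair 4 called 1392 of 15130 genes. Leaving out pairs 1, 2 or 3 gave adjusted p-values from 0.647 to 0.933.

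SLC7A6, the cationic and neutral amino acid exchanger, measured 5.48, 11.6, 20.3 and 8.83 CPM in control and 9.28, 8.47, 21.1 and 7.46 CPM in siG9a. The group means were nearly equal, 11.5 ± 6.34 and 11.6 ± 6.40 CPM (SD, n = 4 each), and most of the spread came from the replicate 3 libraries. In the GENCODE annotation SLC7A6OS, a gene on the opposite strand that measured 18.1 to 39.4 CPM, covers the 3′ end of SLC7A6. The sources do not say whether reads were counted by strand, so the values of SLC7A6 are uncertain in that respect.

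SLC7A11, the cystine importer, measured 15.8, 19.4, 28.3 and 21.8 CPM in control and 21.2, 32.7, 12.0 and 25.8 CPM in siG9a. In pairs 1, 2 and 4 the siG9a library had 134.1%, 168.1% and 118.3% of its control, and in pair 3 it had 42.4%. The log2 change was 0.05 ± 0.33 (SE, limma adjusted p = 0.971). Without both replicate 3 libraries it was 0.45 ± 0.28 (SE) in the paired fit, with a limma adjusted p of 0.361.

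The light chains did not keep a fixed ratio to the heavy chain. The ratio of SLC7A5 to SLC3A2 CPM was 5.10, 4.97, 8.07 and 3.22 in control and 1.47, 3.57, 5.16 and 5.75 in siG9a. The lowest was siG9a replicate 1, in which SLC3A2 was at its highest and SLC7A5 at its lowest. The ratio of SLC7A11 to SLC3A2 lay between 0.533 and 0.667 in the 4 control libraries and between 0.221 and 0.866 in siG9a, so the control ratios fell inside the siG9a range. These ratios are described and were not tested.

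SLC43A2, the facilitated carrier of large neutral amino acids, had the largest positive difference of the 10. It measured 26.7, 19.4, 15.4 and 14.02 CPM in control and 32.5, 16.3, 37.1 and 30.4 CPM in siG9a. In pairs 3 and 4 the siG9a library had 241% and 217% of its control, in pair 1 it had 121.6%, and in pair 2 it had 84.1%, so the groups overlapped through replicate 2. The means were 18.9 ± 5.71 and 29.1 ± 8.95 CPM (SD, n = 4 each). The log2 change was 0.58 ± 0.32 (SE, limma adjusted p = 0.498), with an adjusted p of 0.152 in the paired fit. Without both replicate 3 libraries the log2 change was 0.37 ± 0.30 (SE, paired limma adjusted p = 0.507).

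SLC38A1, a sodium-coupled importer of glutamine and alanine, was the only one of the 10 lower in 4 of 4 pairs, a direction that 15.3% of all genes showed. It measured 21.3, 34.0, 80.6 and 47.3 CPM in control and 13.9, 23.6, 48.5 and 37.3 CPM in siG9a. Set against its same-numbered control, the siG9a level was 65.6%, 69.4%, 60.2% and 78.9% in pairs 1 to 4. The levels differed more between replicate numbers than between the groups, which overlapped. The means were 45.8 ± 25.5 and 30.8 ± 15.2 CPM (SD, n = 4 each). The log2 change was −0.53 with an SE of 0.43 and a limma adjusted p of 0.673 without the block. In the paired fit the SE was 0.20, the 95% interval −0.95 to −0.12, the unadjusted p 0.0136 and the limma adjusted p 0.0874, above the threshold of 0.05. The paired adjusted p was 0.0815 by edgeR and 0.223 by DESeq2, and it was 0.293 by limma without both replicate 3 libraries, with a log2 change of −0.47 ± 0.26 (SE).

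SLC38A2, the related importer known to be induced when amino acids are withdrawn, measured 109.0, 120.9, 73.2 and 138.1 CPM in control and 140.8, 96.2, 53.7 and 122.7 CPM in siG9a. It was lower in 3 of 4 pairs, and the replicate 3 libraries were the lowest of each group. Its log2 change was −0.14 ± 0.31 (SE, limma adjusted p = 0.900).

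SLC1A5, the glutamine exchanger ASCT2, measured 87.7, 86.3, 183.3 and 109.0 CPM in control and 57.8, 94.4, 161.6 and 140.5 CPM in siG9a. It was higher in 2 pairs and lower in 2, and its means of 116.6 ± 45.6 and 113.6 ± 46.6 CPM (SD, n = 4 each) were close together. SLC1A4, its low-abundance relative, lay between 1.71 and 4.67 CPM in all 8 libraries. That is 3 to 9 reads in a library, and the 95% Wilson interval of the lowest value ran from 0.583 to 5.04 CPM, which covers counting error only. Its log2 change was −0.22 ± 0.39 (SE, limma adjusted p = 0.879), with a paired 95% interval of −1.07 to 0.63.

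SLC7A1, the arginine and lysine carrier, had the narrowest spread of the 4 most abundant genes. It measured 111.7, 86.3, 101.5 and 76.9 CPM in control and 74.8, 75.1, 94.2 and 98.6 CPM in siG9a, and 3 of 4 pairs were lower. The log2 change was −0.13 ± 0.21 (SE, limma adjusted p = 0.860), and the paired 95% interval ran from −0.48 to 0.22.

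**Figure D2:**
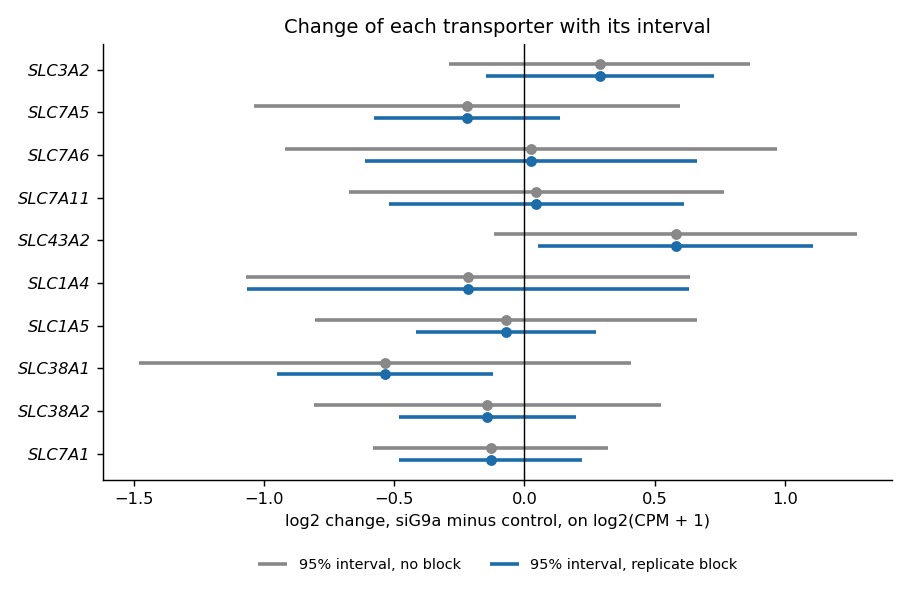
Log2 change of each transporter (horizontal axis, siG9a minus control on log2(CPM + 1)) with its 95% interval from limma without a block (grey) and with the replicate number as a block (blue). Without the block 0 of 10 intervals lie apart from 0, and with it 2 of 10 do, those of SLC38A1 and SLC43A2.

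These intervals are for single genes, are not adjusted for the number of genes, and depend on the fit. By DESeq2 with the block the SE was 0.28 for SLC38A1 and 0.82 for SLC1A4, beside 0.20 and 0.41 by limma. The pairing itself is clear for replicates 1 and 3 only. In the paired limma fit the 95% interval lay wholly within a 2-fold change in either direction for 8 of 10 transporters, the exceptions being SLC1A4 (−1.07 to 0.63) and SLC43A2 (0.05 to 1.11). Without the block it did so for 6 of 10. By direction, 1 of 10 was lower in 4 of 4 pairs, 4 were lower in 3, 2 were lower in 2, and 3 were higher in 3. None was higher in 4 of 4 pairs, as 14.9% of all genes were.

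The variation of each transporter was divided between group and replicate number. In this division of the sum of squares of log2(CPM + 1), the replicate number held more than the group for 9 of 10 transporters, the exception being SLC43A2, and for 78.0% of all genes tested. The replicate number has 3 degrees of freedom and the group 1, so its share is larger for most genes without any difference. Per degree of freedom the replicate number held more for 7 of 10 transporters and for 57.5% of all genes. Without any difference it would also hold more for most genes by this measure, so these counts show no excess. The group held more for SLC3A2 (18.4% against 11.4%), SLC7A1 (10.2% against 8.17%) and SLC43A2 (35.3% against 9.24%). For SLC7A6 the replicate number held 88.0% and the group 0.04%. For SLC1A5 the shares were 87.1% and 0.49%, for SLC38A2 85.6% and 2.52%, and for SLC7A5 80.4% and 3.35%. SLC38A1 divided into 85.4% for the replicate number and 13.7% for the group, with 0.92% left. SLC7A11, at 23.1% and 0.30%, had 76.6% left that neither term held. The medians were 69.6% and 6.75% over the 10 transporters and 54.6% and 12.5% over all genes.

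**Figure D3:**
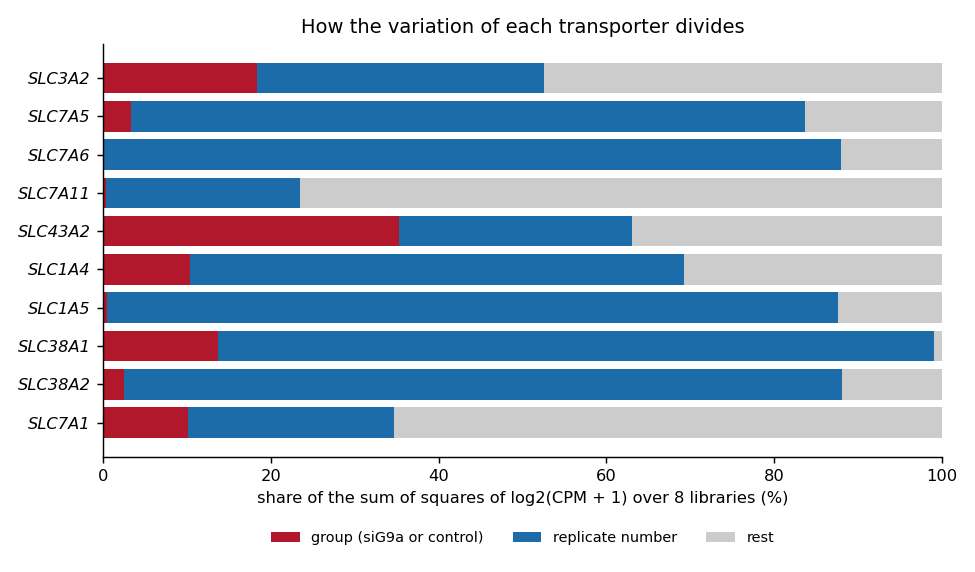
Share of the sum of squares of log2(CPM + 1) over the 8 libraries (horizontal axis, percent) held by the group, the replicate number and the rest, for each transporter. The blue replicate share has 3 degrees of freedom and the red group share 1. Per degree of freedom the replicate share is larger for 7 of 10, not for SLC3A2, SLC7A1 and SLC43A2. A larger replicate share is the more common outcome by this measure even without any difference.

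In the replicate 3 libraries several transporters stood apart, most of them in both groups. Relative to the mean of replicates 1, 2 and 4 on log2(CPM + 1), SLC38A1 was higher in replicate 3 by 1.28 in control and 1.04 in siG9a. SLC7A5 was higher by 1.23 and 1.14, SLC7A6 by 1.2 and 1.24, and SLC1A5 by 0.96 and 0.81. SLC38A2 differed the other way, at −0.73 and −1.13. SLC7A11 had opposite signs, 0.56 in control and −1.06 in siG9a, as had SLC43A2 at −0.32 and 0.53. SLC7A5, SLC7A6, SLC1A5 and SLC38A1 were thus high in the same libraries in which muscle markers were low and neurofilament transcripts high. The part of those markers in the transporter levels was not tested. The median size of the shift, regardless of sign, was 0.65 in control and 0.92 in siG9a for the 10 transporters, beside 0.57 and 0.51 over all genes.

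**Figure D4:**
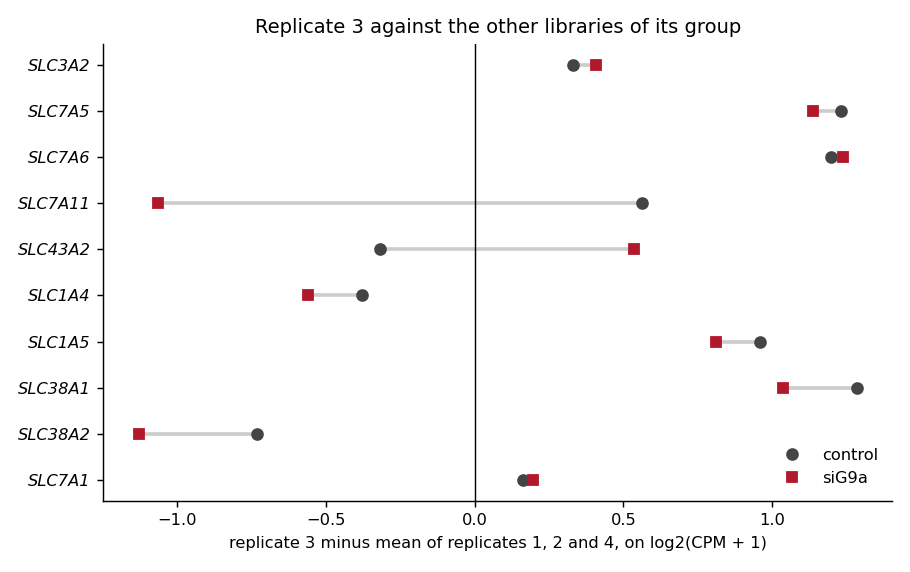
Difference of replicate 3 from the mean of replicates 1, 2 and 4 of its own group on log2(CPM + 1) (horizontal axis) for each transporter, control as circles and siG9a as squares. SLC7A5, SLC7A6, SLC1A5 and SLC38A1 lie to the right in both groups and SLC38A2 to the left, while SLC7A11 and SLC43A2 lie on opposite sides of 0.

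Over the 8 libraries the levels of SLC1A5 and SLC38A1 ran together most closely of the 45 pairs of transporters, with a Pearson r of 0.90 on log2(CPM + 1), followed by SLC1A5 and SLC7A5 at 0.87. SLC7A5 and SLC38A2 ran opposite, at −0.83. The replicate 3 libraries are part of each of these values, which describe the libraries and are given without a test. Among 8889 other genes averaging 10 CPM or more, the 3 most like SLC43A2, the transporter with the smallest unadjusted p without the block (SLC38A1 has it in the paired fit), were YWHAQ (r = 0.95), CKLF (r = 0.94) and CLASP1 (r = 0.91). In the paired fit YWHAQ and CLASP1 were not called (limma adjusted p = 0.23 and 0.264). CKLF, a chemokine-like factor, averaged 12.0 ± 7.69 CPM in the control libraries and 34.0 ± 13.6 CPM after knockdown (SD, n = 4 each), a log2 change of 1.49 with a limma adjusted p of 0.201 and 0.000786 in the paired fit. These 3 genes were chosen for following SLC43A2 over the same libraries, so their differences between the groups are not independent of that choice.

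The wider machinery of amino acid handling was read from lists of genes other than the 10, by the same fits. Of 4 further SLC3 and SLC7 genes and 6 further plasma membrane carriers with enough reads to test, 0 were called in either fit. The paired fit called 11.4% of all genes. SLC7A2, a cationic amino acid carrier, was lower in 4 of 4 pairs (39.0 ± 4.27 and 29.3 ± 4.93 CPM, SD, n = 4). Its paired limma adjusted p was 0.208, and 15.3% of all genes were lower in 4 of 4 pairs. SLC16A10, a carrier of aromatic amino acids, was also lower in 4 of 4 pairs (26.5 and 16.5 CPM, paired adjusted p = 0.144), and SLC6A15 likewise (14.7 and 12.4 CPM, 0.526). The differences of SLC6A15 were small in pair 3 (25.8 and 25.1 CPM) and pair 4 (11.9 and 11.5 CPM). SLC43A1 (38.3 and 32.2 CPM), SLC7A3 (5.63 and 8.90 CPM) and SLC7A8 (2.49 and 4.13 CPM) were not called either, with paired adjusted p-values of 0.586, 0.494 and 0.278. SLC7A8 went the other way, higher in 4 of 4 pairs, as 14.9% of all genes were.

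Of 13 lysosomal and mitochondrial carriers, 1 was called in the paired fit, beside 11.4% of all genes. SLC25A44, the mitochondrial carrier of branched-chain amino acids, rose from 16.9 ± 8.15 to 33.6 ± 16.8 CPM (SD, n = 4), higher in 4 of 4 pairs. Its limma adjusted p was 0.0117 in the paired fit and 0.347 without the block. The call was lost without pair 3 (adjusted p = 0.0661) and without pair 4 (0.0660). The lysosomal carriers SLC36A1 (6.66 and 12.8 CPM) and SLC36A4 (12.0 and 6.96 CPM) had paired adjusted p-values of 0.128 and 0.233.

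In the list of the amino acid response through EIF2AK4 and ATF4, 4 of 20 genes were called in the paired fit. Of these, 1 was higher and 3 lower, beside 11.4% of all genes called. Without both replicate 3 libraries 3 of these 4 were called. Without the block 0 of 20 were. ATF4, the transcription factor itself, measured 717.7, 745.0, 890.4 and 712.9 CPM in control and 462.2, 623.4, 636.0 and 568.3 CPM in siG9a. For 7.32% of all genes the groups did not overlap, and for ATF4 each siG9a value lay below each control value. Its log2 change of −0.43 had a limma adjusted p of 0.0416 in the paired fit and 0.385 without the block. The paired call did not hold without pair 1 (0.180), pair 2 (0.108) or pair 3 (0.166), nor by edgeR (0.0516) or DESeq2 (0.0567) with the block. EIF2AK3 (PERK), a kinase that raises ATF4 translation under stress of the endoplasmic reticulum, rose from 7.26 ± 2.56 to 16.6 ± 3.47 CPM (SD, n = 4, paired limma adjusted p = 0.0236), lost without pair 2 (0.247), without pair 4 (0.0702) and by DESeq2 with the block (0.1002). VLDLR, a lipoprotein receptor, fell from 5.67 ± 2.19 to 1.27 ± 0.86 CPM, which is at most 3 reads in a siG9a library (SD, n = 4, paired limma adjusted p = 0.0130), lost without pair 1 (0.0542) and pair 2 (0.0555). JDP2, a partner of ATF proteins outside the naming rule and chosen after its value was seen, was the remaining call (91.4 to 41.4 CPM, paired adjusted p = 0.000182). The median log2 change of the list was −0.26. Of the transporters with a match to the response element, SLC3A2, SLC7A1 and SLC38A1 had log2 changes of 0.29, −0.13 and −0.53, with none called. The part of ATF4 in these changes was not tested.

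Of 23 genes of amino acid sensing by mTORC1, 3 were called in the paired fit, beside 11.4% of all genes. Of the 3, 1 was higher and 2 lower, and 2 were called without both replicate 3 libraries. SESN3, a sestrin, fell from 27.9 ± 7.45 to 8.90 ± 1.72 CPM (SD, n = 4), lower in 4 of 4 pairs. Its groups did not overlap, as for 7.32% of all genes. Its limma adjusted p-values were 0.000606 in the paired fit and 0.0997 without the block. TSC1, part of the complex that holds mTORC1 back, rose from 80.6 ± 8.28 to 129.3 ± 18.6 CPM (SD, n = 4, paired limma adjusted p = 0.00543), lost without pair 2 (0.0657). LAMTOR3, of the lysosomal Ragulator complex, measured 3.71 and 9.13 CPM (paired adjusted p = 0.0731). The third call, the mTOR subunit MLST8, is outside the naming rule and was chosen after its value was seen (132.7 to 90.9 CPM, paired adjusted p = 0.0173, lost without pairs 1, 2 or 3). The median log2 change of the list was 0.17.

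Of 14 genes of glutamine and glutathione metabolism, 3 were called in the paired fit, each lower, beside 11.4% of all genes. Without both replicate 3 libraries 1 was called. GPX4, the glutathione peroxidase that reduces lipid peroxides, fell from 143.7 ± 29.9 to 80.5 ± 4.85 CPM (SD, n = 4), lower in 4 of 4 pairs. Its groups did not overlap, as for 7.32% of all genes. Its limma adjusted p-values were 0.00150 in the paired fit and 0.148 without the block. The paired call held when each pair was left out in turn, with adjusted p-values from 0.00308 to 0.0457. GPX4 uses the glutathione that cystine taken up by SLC7A11 helps to make, and SLC7A11 was not called. GLUD1, glutamate dehydrogenase, fell from 24.5 to 14.2 CPM with a paired adjusted p of 0.0499, lost without any 1 of the 4 pairs (0.0588 to 0.236) and by DESeq2 with the block (0.162). KEAP1, the repressor of the oxidative stress factor NFE2L2, measured 51.9 and 69.7 CPM (paired adjusted p = 0.156). GOT2, a transaminase outside the naming rule and chosen after its value was seen, was the third call (109.0 to 78.1 CPM, paired adjusted p = 0.0497, lost without any 1 of the 4 pairs, by edgeR at 0.0507 and by DESeq2 at 0.113 with the block).

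Of 20 cytosolic aminoacyl-tRNA synthetases, 1 (YARS) was called in the paired fit, beside 11.4% of all genes. Without both replicate 3 libraries YARS was not called, and 1 other, DARS, was called lower. DARS is outside the naming rule and was chosen after its value was seen. YARS fell from 175.4 ± 53.5 to 125.5 ± 37.8 CPM (SD, n = 4, paired limma adjusted p = 0.0320, lower in 4 of 4 pairs), lost without pairs 1, 2 or 3 (0.0869 to 0.159) and by DESeq2 with the block (0.0621). GARS (122.3 and 88.9 CPM) was lower in 4 of 4 pairs and VARS (42.0 and 27.8 CPM) in 3, with paired adjusted p-values of 0.0644 and 0.11. VARS passed without pair 4 (0.0405). The list's median log2 change was −0.11. Across these 7 lists 0 genes were called without the block, and 12 of 100 were called in the paired fit, beside the 11.4% of all genes.

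**Figure D5:**
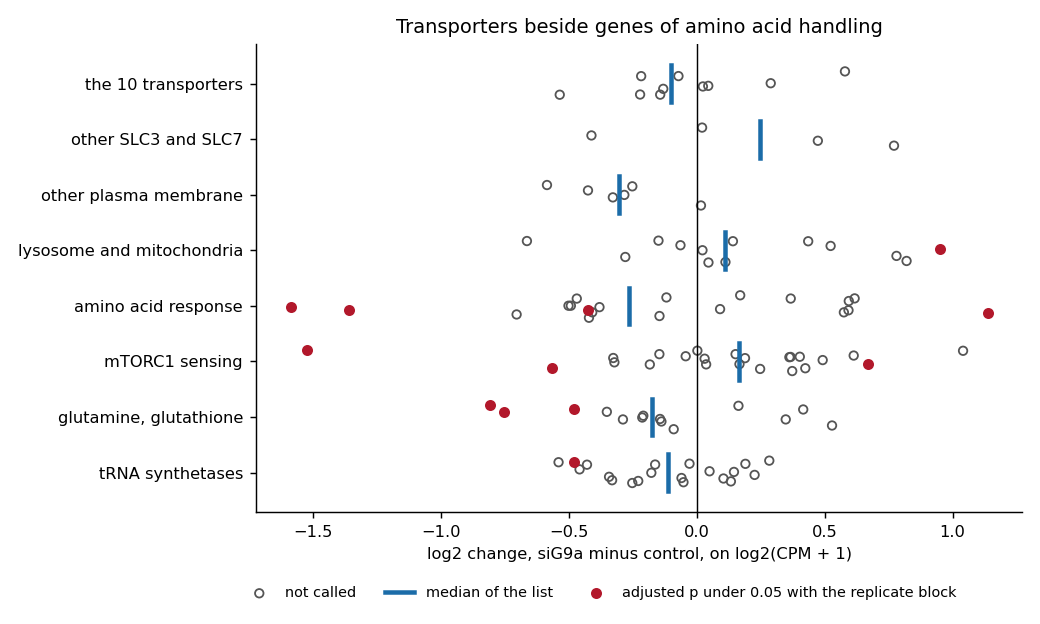
Log2 change (horizontal axis, siG9a minus control on log2(CPM + 1)) of each tested gene in the 10 transporters and 7 lists of amino acid handling (vertical axis). Filled red points had a limma adjusted p under 0.05 in the paired fit and bars mark list medians. The row of the 10 transporters has no filled point and a median of −0.10.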

How the data were processed

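QuantSeq 3′ mRNA libraries of 4 control and 4 siG9a samples of Rh41 were read from the table of CPM (read counts scaled to a common library total) that the authors deposited. Per the submitters' processing notes, FastQC 0.11.8, Trim Galore, STAR 2.5.0a, HTSeq 0.8.0 and edgeR 3.28 were used, and GRCh38 and hg19 are both named without their roles, so no gene coordinates from these files are given. The settings of strand and filtering are not given in the sources used here.

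Values were whole multiples of 1 read (100% within 0.0051 CPM), so reads were recovered for edgeR 4.0.16 and DESeq2 1.42.0. The main test was limma 3.58.1 (R 4.3.3) on log2(CPM + 1) for genes averaging 1 CPM or more, with trended moderation, group as the only term and Benjamini-Hochberg adjustment over 15092 genes, 2-sided. It was also run on simulated data with planted changes larger than any of the transporters, so that run says little on changes of their size. All comparisons of the transporters use this fit and the fit with the replicate number as a block. Same-numbered libraries of the 2 groups deviated together (correlations of 0.50, 0.10, 0.67 and 0.13 over genes), so the numbers, from the labels' titles, were taken to pair the samples. Control 2 with siG9a 4 reached 0.14, above the same-numbered values of replicates 2 and 4, so the pairing is clear for replicates 1 and 3 only. The transporters, lists and motifs were chosen with earlier results of these data known, and the motif search after the values were seen. Genes named outside the 10 are EHMT2, the 3 of smallest unadjusted p in each list, and the 3 most like SLC43A2 by Pearson r among genes of at least 10 CPM. Other pseudocounts, filters, scalings and tools and leaving out libraries were tried. Wilson intervals cover counting error only.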

Additional observations from a re-analysis of the deposited data

Results flagged for a closer look

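In 2 of the 20 sets of 4 libraries tested (10 transporters in 2 groups), a library lay far from the other 3, where chance gives about 1 in 20. For SLC7A6, the cationic and neutral amino acid exchanger, siG9a replicate 3 measured 21.1 CPM and the other siG9a libraries 7.46 to 9.28 CPM. The control replicate 3 library was also the highest of its group, at 20.3 CPM. For SLC1A4, siG9a replicate 3 measured 1.71 CPM, which is 3 reads, and the other siG9a libraries 2.87 to 3.09 CPM.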

How the results depend on the processing

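No transporter was called by limma, edgeR or DESeq2 under any alternative, except SLC7A5 in the paired fit without pair 4 (0 to 1 of 10 called over the paired fits that left out a pair). The fit without pair 4 called 1392 of 15130 genes. The log2 changes of SLC38A1 and SLC1A4 stayed negative and those of SLC43A2 and SLC3A2 positive under every alternative that gave a value. SLC1A4 has none at a mean of at least 5 CPM, and no adjusted p by DESeq2. When single libraries or pairs were left out, the log2 change crossed 0 for SLC1A5 (−0.27 to 0.22), SLC7A1 (−0.29 to 0.017), SLC7A5 (−0.51 to 0.087), SLC7A6 (−0.29 to 0.32), SLC7A11 (−0.18 to 0.45), SLC38A2 (−0.32 to 0.14), SLC7A3 (−0.042 to 0.77) and SLC43A1 (−0.67 to 0.032). SLC7A6 was −0.0052 under DESeq2. The number of genes called without a block was 0, against 18 with no filter, 292 by DESeq2, 415 without both replicate 3 libraries and 0 to 300 when single libraries were left out (300 without control replicate 3). With the replicate block it was 1717 by limma, 1711 by edgeR, 936 by DESeq2, 840 with no filter and 653 to 1392 when a pair was left out (972 without pair 1, 653 without pair 2). The cause was not tested. SLC1A4 has the fewest reads, 3 to 9 in a library.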
